A study of Mus musculus with 4 samples.

Results

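Long intergenic noncoding RNA (lincRNA) intervals are stretches of the mouse genome, by their class meant to lie between protein-coding genes, that the array maker covered with a few probes each. A member was any non-control probe whose name is a stretch of a chromosome with a strand, F for forward or R for reverse, such as chr2:128142035-128142481_R. There were 4607 such names, 2318 forward and 2289 reverse, carried by 16181 of the 55681 non-control probes of the array. They cover 3540 intervals, of which 1067 have a name on both strands. A name had a median of 3 probes (range 1 to 10), and an interval had a median length of 7315 bp (range 62 to 7128487 bp). All 16063 probes with a position lay inside their interval on the named strand, and 118 had none. Of the names, 4211 (91.4%) contain no probe of a protein-coding gene, 235 contain one on their own strand and 161 on the other strand only. Whether an interval overlaps exons or introns was not analysed here.

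RNA came from NIH3T3 cells, an immortalised mouse fibroblast line, at steady state with no treatment. The wild-type group (2 arrays) expressed wild-type EGFR, a receptor tyrosine kinase for epidermal growth factor, and the deletion-mutant group (2 arrays) expressed an EGFR with a deletion. How much of the receptor is deleted, its species, its delivery and whether a group is 1 clone are not stated in the labels. Separate cultures are not named either, so p-values measure how far the arrays of a group spread, and that spread could be technical. The slide was shared by all arrays and each group took its own column, so column and group cannot be told apart. Fibroblast markers were well above background on all 4 arrays for 8 of 8 genes, among them Col1a1 and Pdgfrb, and Epcam, Cdh1, Krt18, Ptprc, Cdh5 and Tek were above it on none. Markers of other cell types were not all absent: Cd68 and Cd3e of the leukocyte list and the endothelial marker Pecam1 were above it on all 4 arrays, and Cd79a on some. The epithelial marker Krt8, also above it on some, rose by 2.05 on the log2 scale (limma adjusted p = 0.00961). Of the fibroblast markers, Col1a1, Col1a2, Col3a1, Pdgfrb, Pdgfra and Thy1 fell, with log2 fold changes of -0.71 to -1.245 (limma adjusted p of 0.00147 or less). Vim rose by 0.23 (limma adjusted p = 0.0448), and S100a4 was at -0.06 (limma adjusted p = 0.392). The part of these markers in the results was not tested. Depth has no counterpart on arrays, and the number of arrays limits the precision: with 2 against 2, an exact two-sided permutation test cannot go below 0.333.

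Long noncoding RNAs are transcripts without a long reading frame. Some act at the chromosome they are made from, as Xist and Airn do in silencing, some build nuclear bodies, as Neat1 does, and some are hosts from which microRNAs or small nucleolar RNAs are cut. Many are made from a strand opposite to, or just beside, a coding gene, so the strand of a probe and its neighbours are part of what a measurement on an interval means.

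Each probe is a 60-base DNA sequence that reads like the transcript of its named strand. The sequences below are those of names that the results turn on: the Morrbid, Rad18 and 4930471E19Rik neighbourhoods, higher in the deletion mutant, and the Maml2 and Malat1 neighbourhoods, lower in it. They are written 5′ to 3′, from the array's own probe list, with positions in mm9.
chr2:128142035-128142481_R (probe at chr2:128142132-128142191, reverse): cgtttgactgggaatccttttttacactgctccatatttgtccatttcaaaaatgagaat
chr6:112552041-112560067_R (probe at chr6:112559108-112559167, reverse): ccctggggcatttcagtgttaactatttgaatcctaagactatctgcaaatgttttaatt
chr10:120058696-120076196_R (probe at chr10:120069222-120069281, reverse): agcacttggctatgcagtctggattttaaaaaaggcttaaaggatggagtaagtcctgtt
chr9:13349094-13352732_F (probe at chr9:13352536-13352595, forward): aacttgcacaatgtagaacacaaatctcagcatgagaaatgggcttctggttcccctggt
chr19:5801802-5802597_R (probe at chr19:5802130-5802189, reverse): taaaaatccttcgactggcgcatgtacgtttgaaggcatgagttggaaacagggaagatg

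In 10 member probes a search found a complete mature microRNA of the RefSeq table on either strand of the probe. Capitals mark the microRNA in a pair of them, miR-410-3p at bases 10 to 30 of a probe in the Mirg neighbourhood and let-7c-5p at bases 25 to 46 of a probe on chromosome 15, both in sense.
chr12:110973190-110987668_F (probe at chr12:110981965-110982024, forward): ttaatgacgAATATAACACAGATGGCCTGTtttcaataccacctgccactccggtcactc
chr15:85412264-85549139_F (probe at chr15:85537022-85537081, forward): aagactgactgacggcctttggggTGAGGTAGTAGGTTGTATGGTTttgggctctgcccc

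For 101 pairs of probes the F and the R name carry the exact reverse complement of each other, so the same 60 bases are read on both strands. Below is such a pair from an interval beside Mecom, in which the reverse strand was the one above background, and a pair from an interval that holds a probe of the histone gene H2bc18, in which it was the forward strand.
chr3:30032959-30079659_F (probe at chr3:30049070-30049129): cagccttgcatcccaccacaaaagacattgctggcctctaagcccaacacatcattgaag
chr3:30032959-30079659_R (probe at chr3:30049070-30049129): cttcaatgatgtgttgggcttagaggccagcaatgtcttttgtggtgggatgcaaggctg
chr3:96074625-96086375_F (probe at chr3:96082796-96082855): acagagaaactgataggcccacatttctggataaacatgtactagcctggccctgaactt
chr3:96074625-96086375_R (probe at chr3:96082796-96082855): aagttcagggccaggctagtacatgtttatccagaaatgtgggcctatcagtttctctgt

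The letters AATAAA, the usual signal for cleavage and polyadenylation, occurred in 3.92% of member probes and in 13.2% of the 28882 probes of protein-coding genes. Its reverse complement, TTTATT, occurred in 3.02% and 4.28%. A match is a description of the letters and not a site.

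How many interval names gave a signal depended on the flag used. A name counted as detected in a group when 1 of its probes was well above background, by the scanner software's flag, on both arrays. By that measure 2156 names (46.8%) were detected in wild-type cells and 1932 (41.9%) in deletion-mutant cells. Both groups detected 1863 names, 293 were detected in wild type only, 69 in deletion mutant only and 2382 in neither. With the flag for signal significantly above background, the shares were 73.5% and 69.9%, and with 1 array sufficing 55.4% and 49.7%. Named protein-coding genes were detected at 59.4% and 57.6%, and the 1757 genes that RefSeq lists as lncRNA at 24.6% and 21.3%. These shares were not compared at equal numbers of probes, and a name with more probes has more chances to be detected. The 20244 coding genes have 28882 probes, and the 4607 interval names 16181. Interval names with 1 probe were detected at 31.7% and 27.4%, and member probes, probe by probe, at 26.6% and 23.0%. The share of member probes above background was 30.3% and 28.3% on the wild-type arrays and 26.0% and 24.7% on the deletion-mutant arrays. Other probes stood at 53.7% and 52.3% against 51.2% and 50.3%, so both kinds of probe were above background less often on the deletion-mutant arrays. How the difference in detected names relates to that shift was not tested.

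Detection went with how a name was probed. Of names with 1 probe, 32.6% were detected in a group, and of names with 6 to 10 probes 75.6%. Because 1 probe suffices for a name, the rule itself favours names with more probes. Forward and reverse names were detected at 47.3% and 49.3%. Probe by probe, 25.7% of probes with a GC content of at most 35% were detected in a group, 24.2% of those between 35% and 45%, 34.9% up to 55% and 51.2% above that. Chromosome 19 had the highest share of names detected in a group (57.6% of 99) and chromosome 18 the lowest (40.6% of 180).

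The 2225 names detected in a group were tested, each by its brightest such probe, within 1 limma fit over all 18093 features of the array. Of them 979 (44.0%) differed between the groups at a Benjamini-Hochberg adjusted p under 0.05, against 58.8% of all features. Protein-coding genes stood at 64.1% and named lncRNA genes at 55.3%. Higher in the deletion mutant were 364 interval names (16.4%, against 34.6% of all features), and lower were 615 (27.6%, against 24.2%). At a fitted change of at least 2-fold the counts were 58 higher (2.61%, against 5.94%) and 201 lower (9.03%, against 7.46%). These moved with the processing: normexp background correction gave 26 and 62, median scaling 96 higher, and the filter on all 4 arrays 118 lower. Thus 37.2% of called interval names were higher, compared with 58.9% of all called features and 28.1% of called lncRNA genes.

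The median log2 fold change (deletion mutant minus wild type) was -0.08 over interval names, 0.07 over all features, 0.12 over protein-coding genes and -0.22 over lncRNA genes. That split moves with the scaling. Each array was divided by its own 75th percentile; with the median of each array instead, as in the authors' deposited values, 59.0% of called interval names and 73.5% of all called features were higher. With the 75th percentile of the probes above background on all 4 arrays, the shares were 19.2% and 38.9%, and with quantile normalization 43.7% and 51.1%. The median of the interval names lay below that of all features by 0.148, a difference that scaling by 1 constant per array cannot change. It was 0.091 after normexp and 0.043 after quantile normalization. The median standard error was 0.10 for interval names and 0.07 for all features, and names whose probe was above background on all 4 arrays (1853) were called at 42.6%, 324 higher and 465 lower. All features above background on all 4 arrays were called at 58.2%, 6016 higher and 3616 lower.

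**Figure D1:**
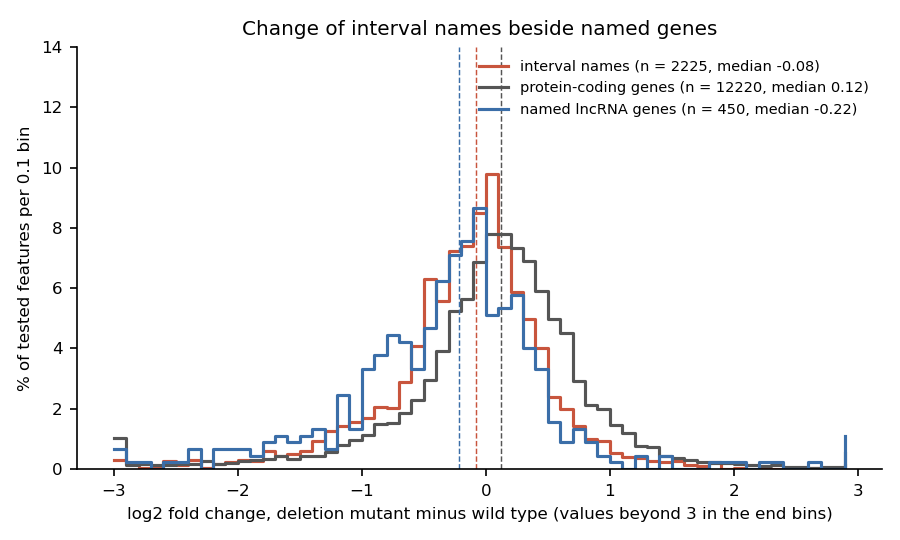
Distribution of the log2 fold change (x axis, deletion mutant minus wild type) as the percentage of tested features in bins of 0.1 (y axis) for interval names, protein-coding genes and named lncRNA genes; dashed lines are the medians. The interval names (median -0.08) lie between the lncRNA genes (-0.22) and the coding genes (0.12) under the 75th-percentile scaling.

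Among called names, chromosome 7 had the lowest share higher (13.9%, 5 higher and 31 lower, 95 tested). Chromosome 13 had the highest (49.0%, 24 and 25, 116 tested). They are the extremes of 20 chromosomes, beside 37.2% over all called interval names and 58.9% over all called features. Base composition also moved with the change. Among tested member probes, taken one by one, those of at most 35% GC were called in 55.8% of cases, 126 higher and 247 lower, with a median log2 fold change of -0.24. Probes above 55% GC were called in 24.7%, 52 higher and 44 lower, with a median of 0.01. The call rate of other probes fell with GC as well, from 62.3% to 37.1%, while their median went from 0.13 to 0.06. The part of base composition in the result was not tested.

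Levels below are log2 signal minus the 75th percentile of the same array; the falls and rises described are among the 10 largest of each among called names above background on all 4 arrays, with 8 of the falls given. Beside Eomes, a T-box transcription factor gene that was itself not tested, chr9:118291593-118324230_F had levels of 0.95 and 0.86 in wild type and of -2.19 and -2.29 in the deletion mutant. The groups were far apart, an 8.83-fold fall (log2 fold change -3.14 ± 0.07, SE, n = 2 and 2, limma adjusted p = 0.000172), but it rests on 1 of 6 probes. In chr9:13349094-13352732_F, 71.5 kb from Maml2, a coactivator of Notch signalling, the levels were 1.45 and 1.36 against -1.60 and -1.53. That is a 7.85-fold fall, all 3 of its probes fell (-2.97 to -2.84), and Maml2 fell by 1.97 on the log2 scale.

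Other falls stood apart from their neighbour. The forward name chr3:96074625-96086375_F, whose probe pair is printed above, had 0.57 and 0.51 against -2.29 and -2.24, a 6.97-fold fall with all 5 probes between -2.80 and -2.05. H2bc18, a gene for core histone H2B inside the interval on the same strand, was higher by 0.89 on the log2 scale (limma adjusted p = 0.000966). In chr8:108120629-108123201_F the levels went from 0.89 and 1.00 to -1.71 and -1.56 (5.98-fold, 3 of 3 probes lower), whereas Ripor1, 22.8 kb away, fell by 0.35 on the log2 scale. The reverse name chr18:3003075-3016150_R went from 2.30 and 2.21 to -0.43 and -0.58 (6.78-fold, 3 of 3 kept probes lower), and Crem, 251 kb away, did not pass the test (log2 fold change 0.19).

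For some of these falls the probes of a name differed. The reverse name chr11:96111499-96126224_R fell 8.67-fold by its brightest probe (1.63 and 1.53 against -1.49 and -1.58), and its other kept probe was called higher, with a log2 fold change of 0.46. In chr2:181650800-181669350_R, which fell 7.34-fold (2.00 and 1.96 against -0.99 and -0.80), the other probe had a log2 fold change of -0.86. A name with a single probe, chr6:34548561-34612216_F, fell 6.02-fold (0.12 and 0.30 against -2.49 and -2.28).

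Among the rises, chr6:112552041-112560067_R was the largest. It lies 10.6 kb from Rad18, a ubiquitin ligase that marks the sliding clamp PCNA at stalled replication forks. Its levels were -2.03 and -2.43 in wild type and -0.18 and -0.14 in the deletion mutant, a 4.19-fold rise (log2 fold change 2.07 ± 0.15, SE, limma adjusted p = 0.00112). All 4 kept probes rose, by 1.88 to 2.72, and Rad18 rose by 1.88. The reverse name chr2:132079092-132087069_R, 4.04 kb from Pcna and on its strand, went from -1.57 and -1.61 to 0.25 and 0.27 (3.61-fold, on 1 kept probe), and Pcna rose by 1.15 on the log2 scale.

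A rise of 3.38-fold was seen in chr5:91480533-91502237_R (-0.76 and -0.84 against 0.88 and 1.02, 3 of 3 probes higher). Its nearest named gene, 16.4 kb away on the other strand, is Epgn, which encodes the EGFR ligand epigen and was not tested because no probe of it was above background on both arrays of a group. In chr10:8606683-8665783_F, 164 kb from Sash1, the levels went from -3.24 and -2.86 to -1.32 and -1.30 (3.35-fold). The reverse name chr14:56348028-56348470_R, which overlaps a probe of the proteasome activator gene Psme2, went from -0.21 and -0.16 to 1.47 and 1.45 (3.12-fold) on 1 kept probe. Psme2 did not pass the test (log2 fold change -0.23). In chr1:138499609-138502045_R, near Zfp281, the levels were -2.0 and -2.57 against -0.68 and -0.72 (log2 fold change 1.59), and Zfp281 fell by 0.41. The remaining 4 of the 10 rises lie around Morrbid and are described with that locus.

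**Figure D2:**
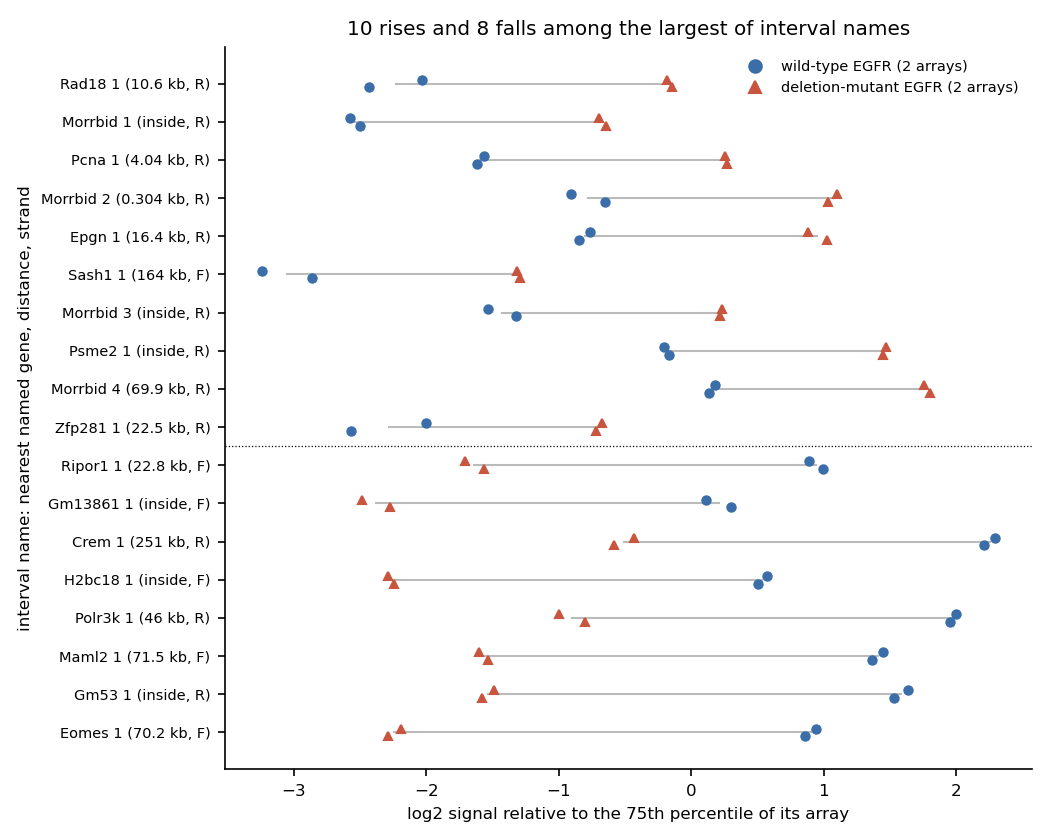
Log2 signal relative to the array's 75th percentile (x axis) on each array for the 10 largest rises (above the dotted line) and 8 of the 10 largest falls; circles are wild-type and triangles deletion-mutant arrays, and each row is labelled with its nearest named gene, the distance to it and its own strand. The arrays of a group lie close together and the groups do not overlap in any row, as the choice of rows requires.

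For names above background in 1 group only, the fold is given as a lower bound: the mean of the bright group against, on each array of the dim group, the higher of the probe's own level and the lowest level of any probe above background there. Such names passed the filter only through their bright group. Those described here were picked for large bounds among called names, so no p-value is given for them. The reverse name chr7:111526943-111545093_R, which holds a probe of Trim30c, was at least 17.8-fold lower in the deletion mutant (0.80 and 0.73 in wild type, measured at -3.93 and -3.26). That name rests on 1 kept probe. Trim30c belongs to a family of close paralogs, and hybridisation from another member was not tested. In chr3:95502970-95503399_R, 22.8 kb from Adamtsl4, the fall was at least 8.08-fold (-0.49 and -0.30 against measured levels of -5.52 and -4.98), and Adamtsl4 fell by 1.47 on the log2 scale. This name, too, rests on 1 kept probe. Lower by at least 5.10-fold, with 3 of 3 probes lower, was chr2:67411703-67412293_F near Xirp2. The next bounds were 3.31-fold for chr18:61781410-61788685_R, near Csnk1a1, and 3.22-fold for chr2:136327645-136341251_F, which overlaps Ankef1.

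In the other direction, chr10:120058696-120076196_R was at least 7.22-fold higher in the deletion mutant, with -0.84 and -0.64 there and measured levels of -4.14 and -5.00 in wild type. An overlapping name, chr10:120069727-120136259_R, was at least 5.13-fold higher on 1 kept probe. Both contain probes of the lncRNA gene 4930471E19Rik, itself above background only in the deletion mutant and at least 3.11-fold higher. In chr5:45400409-45815639_R, a rise of at least 3.56-fold went with that of the lncRNA gene D5Ertd615e (at least 2.88-fold). Bounds of 2.46-fold and 2.23-fold were found for chr12:111287772-111333890_R, on 1 kept probe, and for chr18:70400082-70404236_R, which overlaps Dynap.

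Some neighbouring intervals moved together. Chaining intervals of either strand that overlap or lie within 20 kb gave 1870 loci, of which 96 had at least 4 tested names. In 54 of these the called names were only lower, in 14 only higher, in 26 both and in 2 none were called. Over all tested interval names 27.6% were called lower and 16.4% higher, against 24.2% and 34.6% of all features. That split moves with the scaling: median scaling gave 447 names lower and 643 higher. The loci were not recounted under it. At least 4 names were called in the same direction in 17 of the 96. The loci below were chosen after their values were seen. Names in a locus can overlap and share transcripts, so their number is not a number of independent measurements.

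Around Morrbid (Gm14005 on the array), a lncRNA known for restraining its neighbour Bcl2l11 in myeloid cells, all 5 tested names lie on the reverse strand and all rose. Besides chr2:128142035-128142481_R, printed above (-2.57 and -2.50 against -0.70 and -0.64, 3.64-fold), chr2:128137419-128141735_R went from -0.91 and -0.65 to 1.1 and 1.04 (3.6-fold). The long name chr2:127988295-128194920_R went from -1.53 and -1.32 to 0.24 and 0.22 (3.15-fold), and chr2:128211990-128215223_R, 69.9 kb away, from 0.18 and 0.14 to 1.75 and 1.80 (3.08-fold). The fifth, chr2:128217275-128217972_R, rose by 1.36 on the log2 scale. Morrbid rose by 1.80 (limma adjusted p = 0.00666), and all 16 kept interval probes here were called higher. Bcl2l11, a proapoptotic BCL2 family gene 169 kb away on the forward strand, did not pass the test (log2 fold change -0.27).

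The largest block of falls lay in the Dlk1-Dio3 imprinted region, where Meg3, Mirg and a long run of microRNAs and small nucleolar RNAs are made from the maternal chromosome. There 10 of 12 tested names between chr12:110842149 and 110988678 fell, with log2 fold changes of -0.90 to -1.71, and the remaining names were at -0.19 and -0.83. The forward name chr12:110842154-110883594_F went from 2.72 and 2.73 to 1.11 and 1.17 (3.01-fold). In chr12:110944403-110988678_F the levels went from 2.24 and 2.17 to 1.15 and 1.18 (2.06-fold), and all 10 of its probes fell, by 0.79 to 1.35 on the log2 scale. The probe that contains miR-410-3p had 0.23 and 0.09 against -1.18 and -1.04 (log2 fold change -1.27). Meg3 and Mirg fell by 1.55 and 1.21 on the log2 scale, although another Mirg probe was called higher (0.36), and Dlk1, a coding gene of the paternal chromosome, fell by 0.85. Reverse-strand names took part: chr12:110870903-110891628_R went from 0.54 and 0.34 to -1.03 and -1.15.

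**Figure D3:**
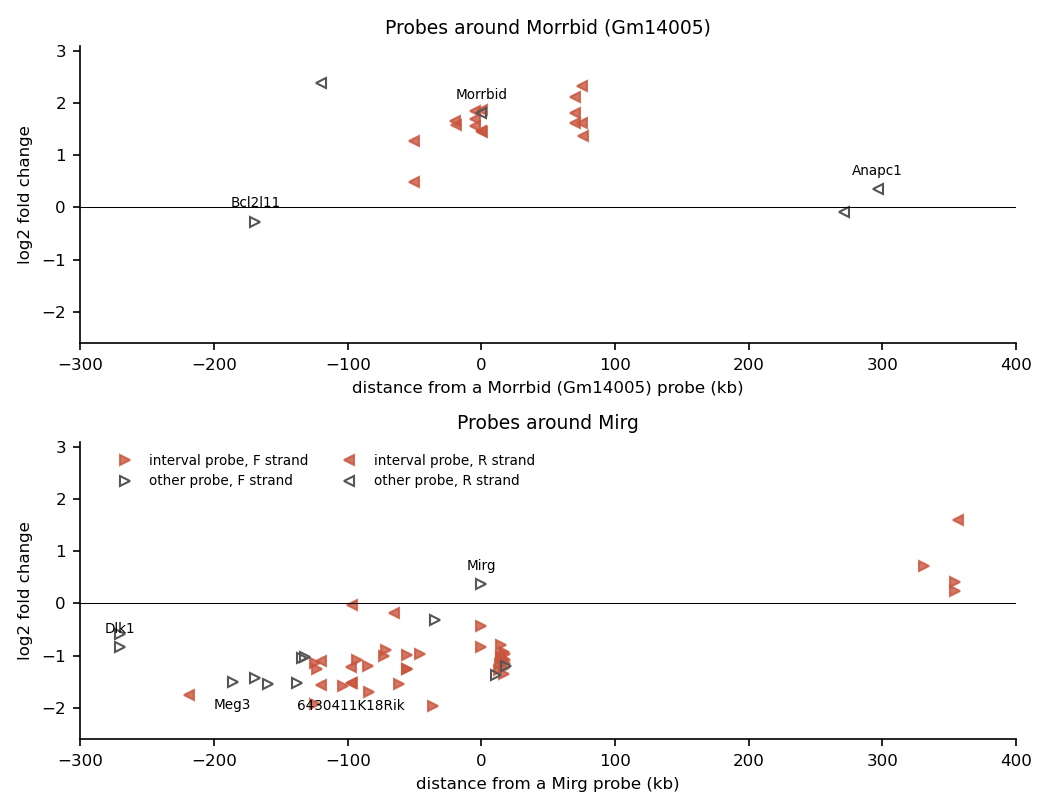
Log2 fold change (y axis, deletion mutant minus wild type) of every kept probe against its distance in kb from a Morrbid probe (upper panel) and a Mirg probe (lower panel); filled symbols are interval probes, open symbols other probes, and the direction of the triangle gives the strand. All 16 interval probes around Morrbid lie above 0; of the 42 in the Mirg panel 38 lie below 0, with values down to -1.98, and the 4 above it lie at the right edge, outside the locus.

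Beside Mecom, a zinc finger transcription factor gene, all 7 tested names, all on the reverse strand, fell. The name chr3:30077338-30080281_R went from 0.33 and 0.34 to -1.22 and -1.38 (log2 fold change -1.63), and chr3:30099759-30133959_R from 0.44 and 0.53 to -1.04 and -1.20 (-1.60). Mecom was at least 2.90-fold lower, being above background in wild type only. Of the 7 names, 2 were also above background in wild type only, with bounds of 1.39-fold and 1.5-fold. In the reverse-complement pair printed above, the reverse probe had -1.09 and -1.0 in wild type and -3.17 and -3.81 in the deletion mutant, and the forward probe was above background on none of the 4 arrays.

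Of 8 tested names in a reverse-strand locus next to Sox4, 5 fell, among them chr13:28947034-28949166_R (0.85 and 0.89 against -0.22 and -0.20). Sox4 fell by 0.29 on the log2 scale. Beside Gm4258, 5 of 7 names fell and 1 rose, and the falls were all on the forward strand: chr1:139822286-139822985_F went from 0.73 and 0.84 to -0.56 and -0.74. Beside Zbtb20, a zinc finger repressor gene that fell by 1.16, 4 of 4 names fell, as in chr16:43623175-43624069_F (2.69 and 2.82 against 1.34 and 1.41). Near the antiproliferative gene Btg1, 4 of 4 names rose, by 0.46 to 0.85 on the log2 scale, whereas Btg1 did not pass the test (-0.04).

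Intervals at 42 well-studied noncoding RNA genes were examined as a list. The array has 33 of these genes, 18 have an interval within 10 kb, and 45 such names for 17 genes were tested. Of these 21 (46.7%, against 58.8% of all features) were called, 8 higher and 13 lower, and the median log2 fold change was -0.03. At Malat1, an abundant nuclear RNA of splicing speckles, chr19:5801802-5802597_R had 8.72 and 8.76 against 7.78 and 7.92 (1.85-fold lower), and chr19:5798135-5800557_R had 5.83 and 5.80 against 4.90 and 4.78 (1.96-fold lower). All 6 probes of these names fell, by 0.89 to 1.13 on the log2 scale, whereas the Malat1 probe itself, at 2.36 and 6.03 kb from them, did not pass the test (-0.20). Probes under the name NEAT2, an alias of Malat1, within 0.12 kb of that probe were called lower, by 0.30 to 0.36. At Neat1, the scaffold of paraspeckles, the pattern was the reverse. The gene probe fell by 0.59, and chr19:5834117-5835940_R, 6.62 kb away, did not pass (4.02 and 4.09 against 4.01 and 4.04).

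Host genes of small RNAs moved in both directions. At Mir17hg, the host of the miR-17-92 cluster, chr14:115443612-115445950_F went from 0.51 and 0.50 to 1.43 and 1.41 (1.88-fold), beside a rise of 0.86 in the gene. By their brightest probe the other 3 tested names there did not pass (-0.17, -0.16 and -0.19). Their probes differed, however. In chr14:115423660-115463160_F they ranged from -0.16 to 0.515, with 1 called higher. In chr14:115423660-115463160_R they ranged from -0.19 to 0.88, with 2 called higher. At Dleu2, the host of miR-15a and miR-16-1, chr14:62294849-62301165_R went from 0.22 and 0.31 to -0.98 and -1.0 (2.38-fold lower), and Dleu2 fell by 1.49. Of 5 tested names in this locus 3 were called lower, with chr14:62254361-62301162_R (-1.08) and chr14:62280837-62283960_R (-1.445) among them. By their brightest probe chr14:62263564-62307496_R (0.19) and chr14:62263564-62308286_R (0.16) did not pass. The former had 1 probe called lower. The let-7c-5p probe printed above, in chr15:85412264-85549139_F, had -1.25 and -1.29 against -2.46 and -2.58. The brightest of the 7 kept probes of that name did not pass, however, and its probes ranged from -1.25 to 0.54. Gas5, a host of small nucleolar RNAs, did not pass (-0.05), whereas chr1:162965309-162970704_F on its strand rose by 0.67.

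At Pvt1, next to Myc, 4 of 5 names rose by 0.30 to 0.78 on the log2 scale; the smallest of these, chr15:61984389-62102500_F, had probes called in both directions. Pvt1 itself did not pass (0.10). On the X chromosome, Firre, a nuclear RNA that binds several chromosomes, fell by 1.62, and chrX:47893703-47996700_R went from -1.08 and -0.76 to -2.16 and -2.21. All 3 tested names at Ftx fell, by 0.60 to 1.08. At Airn, the antisense RNA of the imprinted Igf2r, chr17:12990484-13018375_F fell by 0.66 and the gene by 0.65. By their brightest probe the other tested names there, chr17:13008796-13023201_F (-0.36) and chr17:13020750-13033750_F (0.08), did not pass, but each had 1 probe called lower. Tug1 had names in both directions: chr11:3542140-3546888_R fell by 0.71, and chr11:3548300-3549676_R was at 0.23, a call that was lost when the values of its kept probes were averaged.

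Interval names were compared with the nearest named gene, by the mm9 position of the probes. In 512 cases both the name and the gene were called, and 365 (71.3%) had changed in the same direction. For named genes and their own nearest gene the share was 60.1% of 3660. When the gene lay inside the interval the share was 86.6%, up to 10 kb 75.2%, from 10 to 50 kb 90 of 150 pairs, and from 50 to 200 kb 58.7%. For named genes it was 61.0% up to 10 kb, 57.8% from 10 to 50 kb and 62.8% from 50 to 200 kb. By strand, 77.8% of the pairs of interval name and gene on the same strand and 57.6% of those on opposite strands changed together. With the gene inside the interval and on its strand, 99 of 108 pairs (91.7%) did. Neighbours of class lncRNA shared the direction in 82.7% of 110 pairs and protein-coding neighbours in 67.8% of 394. Names and genes share arrays, and an interval that overlaps a gene may measure its transcript, so these shares are descriptions without a test.

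The sizes of the changes were compared too. Over tested pairs, called or not, Pearson's r between the log2 fold changes was 0.69 for 255 genes inside the interval on its strand, 0.56 for 329 within 10 kb on its strand and 0.29 and 0.38 at 10 to 50 and 50 to 200 kb. On the other strand it was 0.12 for 120 inside the interval and 0.23 within 10 kb. For named genes within 10 kb of each other it was 0.26 on the same strand. The points share arrays and genes, and no p is given.

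**Figure D4:**
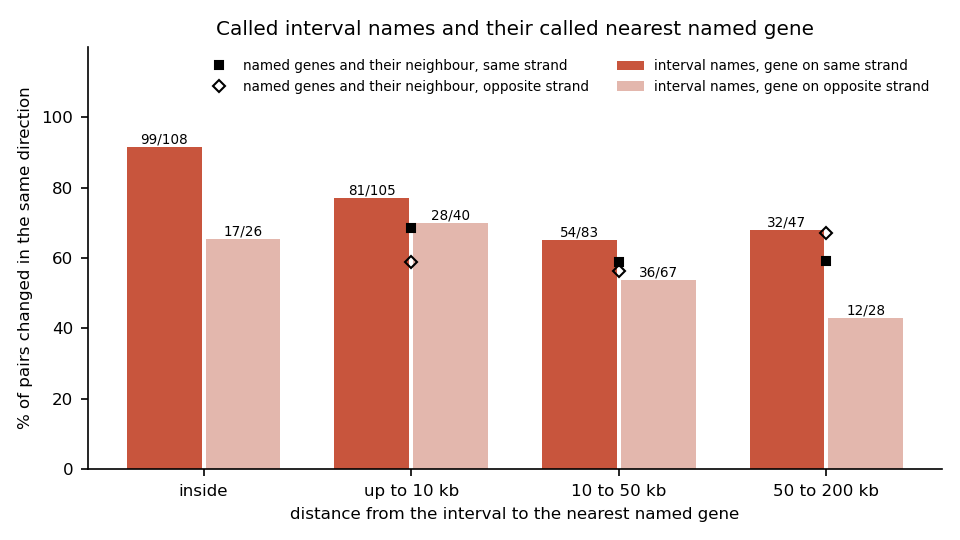
Percentage of pairs in which a called interval name and its called nearest named gene changed in the same direction (y axis), by distance (x axis) and relative strand (dark bars same, light bars opposite); counts stand above the bars, and symbols give the same share for named genes and their neighbours. The share was 99 of 108 for genes inside the interval on its strand and 12 of 28 at 50 to 200 kb on the opposite strand.

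In 89 pairs both were called with a fitted change of at least 2-fold, 80 of them in the same direction, 22 higher and 58 lower. Some of these names or genes were above background in 1 group only. For them the lower bound of the fold can be under 2, as for the name near Dusp6 given below (1.63-fold). The 80 pairs involve 50 genes, because several names can lie beside 1 gene, so they are not independent. Of 244 pairs of named genes that met the same limits, 184 had the same direction. The 89 pairs came from 1639 tested pairs and the 244 from 8846. The following were chosen after their values were seen. Within 2.94 kb of Jun, an AP-1 subunit and immediate early gene that rose by 1.74 on the log2 scale, chr4:94719930-94825776_F on the other strand went from -1.69 and -1.74 to -0.63 and -0.60. In chr1:152001112-152012796_R, 46.3 kb from Ptgs2, which encodes the inducible cyclooxygenase, the levels went from -2.09 and -2.02 to -0.71 and -0.77, and Ptgs2 rose by 1.06. The names chr8:119090566-119097735_R and chr8:119092623-119094219_R near Cdyl2 rose by 1.33 and 1.5, as did Cdyl2 (1.44). Near Tet1, a dioxygenase that oxidises methylcytosine, chr10:62267317-62269871_R fell by 1.21 and Tet1 by 1.22.

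In 9 pairs the directions were opposite. Dusp6, a phosphatase that inactivates ERK, rose by 2.58 on the log2 scale (2.81 and 2.76 against 5.37 and 5.35). The name chr10:98761521-98885681_F, 31.5 kb away on the same strand, was at least 1.63-fold lower, above background in wild type only (-2.87 and -2.54). Epha2, a receptor tyrosine kinase, rose by 2.01, and chr4:140904589-140915114_F, 19.4 kb away, went from -0.42 and -0.44 to -1.63 and -1.71. Ezh2, the methyltransferase of the Polycomb complex PRC2, rose by 1.01, and chr6:47595238-47601893_R, 115 kb away, went from -1.26 and -1.24 to -2.65 and -2.03. Inside chr1:175660642-175671878_R, which rose by 1.26, the interferon-inducible gene Ifi207 fell by 1.17 on the same strand.

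Strand was resolved on the array. Of the 1067 intervals with both strands, 347 were detected on both, 478 on 1 (215 forward, 263 reverse) and 242 on neither. Among the 347, both strands were called in 57 intervals, 43 in the same direction (20 higher, 23 lower) and 14 in opposite directions, 1 strand in 159 and neither in 131. Leaving out wild-type array 1 gave 17 in the same and 7 in opposite directions, and leaving out wild-type array 2 gave 17 and 4. In the fit of all 4 arrays, 44.0% of tested interval names and 58.8% of all features were called. Pearson's r between the strands' log2 fold changes was 0.27. In the 101 reverse-complement pairs, both probes were detected in 6, 1 in 37 and none in 58. In the H2bc18 pair, the forward probe had 0.15 and 0.25 against -2.56 and -2.48, and the reverse probe was above background on no array. Elsewhere in that interval, however, 1 probe of the reverse name was kept and called lower (log2 fold change -0.42).

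Large differences between strands, each above background on all 4 arrays, were in the intervals of several falls already given. At chr11:96111499-96126224 the forward name was at 0.09, and at chr2:181650800-181669350 at -0.05. In the latter, however, 1 of 3 forward probes was called lower (-2.58), so the difference depends on the probe chosen. At chr2:132079092-132087069, near Pcna, the forward name fell by 0.47 while the reverse name rose by 1.85, each on 1 kept probe. At chr6:86477309-86537554 the reverse name fell by 2.37 on 1 probe (its other kept probe was at 0.72), and the forward name did not pass (-0.29).

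**Figure D5:**
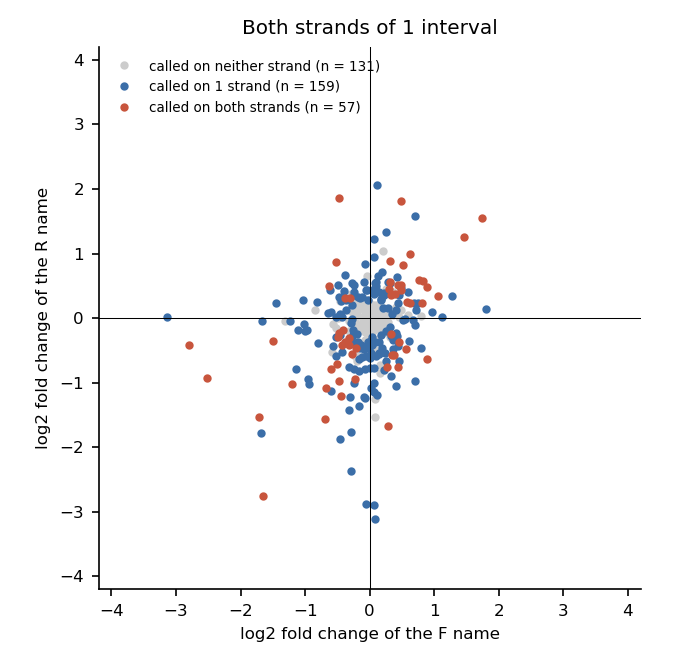
Log2 fold change of the forward name (x axis) against that of the reverse name (y axis) of the same interval, for the 347 intervals tested on both strands; grey, blue and red mark intervals called on neither, 1 and both strands. Many called intervals lie along an axis, with a change on 1 strand and a value near 0 on the other.

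Probes of a name did not always agree. Of 1096 names with at least 2 kept probes, 740 had log2 fold changes of the same sign in all of them, and 48 had probes called in both directions. Among 570 called names with at least 2 kept probes, 396 had another probe called the same way. The remaining 1129 tested names rest on 1 kept probe.

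Some interval probes sit at promoters. Of the 16181 member probes, 168 match 60 bases of a RefSeq promoter window (250 bases before to 50 after a gene's start, assembly GRCm38.p6) exactly, and 48 of those were kept, 19 in sense and 31 in antisense to a gene, some to both. A tested gene and a tested probe could be paired 30 times, and both were called in 5 pairs, 3 of them in the same direction. With every probe tested by itself, 46.6% of member probes were called, and 58.8% of all features were called in the main fit. The 5 pairs are too few to be read as a result about promoters. At Sap30, a subunit of a histone deacetylase complex, the probe of chr8:59966759-59989065_R rose by 0.88 and the gene by 0.93, but the other kept probe of that name was called lower. At Osbpl3 the probe of chr6:50361567-50406200_R fell by 0.43 while the gene rose by 0.80.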

How the data were processed

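One-colour Agilent arrays (Cy3) of total RNA were read with Feature Extraction 10.10.1.1, per the file headers, which also name mm9 positions. The deposited intensity is the background-subtracted, spatially corrected gProcessedSignal; a flag marks spots well above background. The authors' deposited log2 values differ from log2 of that signal by 1 constant per array and have a median of 4.45 on each; how the authors chose the scale is not stated. Here log2 intensity minus the 75th percentile of its array was used. Outlier spots were left out, spots of a probe averaged, and probes kept if well above background on both arrays of a group; a name was its brightest kept probe. Differences were tested with limma 3.58.1 (R 4.3.3; lmFit, eBayes, Benjamini-Hochberg over 18093 features), checked on simulated data. Gene symbols and classes came from RefSeq (GRCm38.p6): 22525 of 27372 array gene names matched. Names were chosen by size of change, bounds, brightness, strand difference or a noncoding gene list. The members and lists were chosen with earlier results of these data known. Alternatives were other background corrections, scalings, filters, probe rules and arrays left out. A gene and the intervals beside it are not reported here.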

Additional observations from a re-analysis of the deposited data

How the results depend on the processing

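Counts of called interval names stayed within 1.5 times of 979 (364 higher, 615 lower) under 13 of 15 alternatives for the total. Unfiltered, 562 were called (203 higher, 359 lower), and with every probe tested by itself 2086 (719 and 1367). Median scaling gave 643 higher and the authors' values 642; scaling to the 75th percentile of only those probes that all arrays detected gave 220 higher and 923 lower. At 2-fold (58 higher, 201 lower), normexp gave 26 and 62, median scaling and the authors' values 96 higher, the detected-probe percentile 36 higher, the filter on all 4 arrays 118 lower, and single probes 150 and 542. With the replicate number as a block, 966 were called (364 higher, 602 lower). Same-numbered arrays deviated together with a correlation of 0.05. With 2 arrays a group, that value cannot show whether the numbers pair them. Without 1 array, 694 to 988 were called, 273 to 345 higher and 421 to 643 lower. Both strands were then called the same way in 17 to 44 intervals and opposite ways in 4 to 19, lowest without a wild-type array; unfiltered, in 16 and 3, and 8 were opposite under the detected-probe percentile. The share changing with the nearest gene (71.3%) was 76.3% under that percentile, 81.8% unfiltered, 66.6% with the nearest tested gene, 64.8% leaving out genes inside, and 80.6% within 10 kb. Detection of 46.8% and 41.9% became 73.5% and 69.9% with the flag for signal significantly above background, 55.4% and 49.7% with 1 array sufficing, and 26.6% and 23.0% probe by probe. For 86 named intervals, 1158 of 1277 values kept their call, 50 lost and 67 gained one. With probe means, chr11:3548300-3549676_R (-0.024) and chr19:5771425-5848475_F (-0.17) changed sign, and neither was called.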
